A study of Homo sapiens with 8 samples.

Results

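Caveolae are small, flask-shaped pits of the plasma membrane. Caveolins, which are wedged into the inner leaflet, build the pit together with cavins, which form a coat on its cytoplasmic side. EHD2 forms a ring at the neck that keeps the pit at the surface, and the F-BAR protein PACSIN2 helps to shape the membrane. The pits flatten when the membrane is stretched and re-form when tension falls, and the number of pits is known to depend on CAV1 and CAVIN1 together.

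The genes followed here are the caveolins CAV1 and CAV2, the cavins CAVIN1, CAVIN2 and CAVIN3, EHD2 and PACSIN2. A gene was taken as measured where a probe set carried its symbol and no other in the platform annotation. Of the 7 genes, 6 were measured in this way, each by 1 probe set, out of 18417 genes tested in all. The probe set annotated to CAV2, the neighbour of CAV1 on the chromosome, also carries the symbol LOC105375463 and was left out, so CAV2 was not analysed here.

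BT549 is a human triple-negative breast cancer line. The 8 arrays, 4 a group and described by the submitters as biological replicates, hold total RNA of cells attached to ordinary culture plastic and of cells kept in suspension on poly-HEMA, a coating to which cells do not stick. Both groups were kept in RPMI with 10% serum and insulin and carry no further treatment or genetic change in the labels. Suspension lasted 24 h, while attached culture is given as 24 h in one label and 48 h in another, and if the latter is right, hours in culture and attachment cannot be told apart. A single line limits what the values say about other cells.

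Across the 8 arrays the median log2 signal lay between 6.02 and 6.07 and the highest signal between 13.69 and 13.73, and arrays correlated at 0.987 to 0.996 over 33297 probe sets. With arrays it is their number, 4 a group, that limits the precision. In attached cells the mesenchymal markers VIM, SPARC, FN1, CDH2 and ZEB1 averaged 11.73, 11.17, 10.79, 8.94 and 8.57. The epithelial markers were uneven: the cadherin CDH1 averaged 4.19, EPCAM 5.47, GRHL2 5.81 and the keratins KRT8 6.42 and KRT18 8.16. PGR averaged 4.19, ESR1 5.04 and ERBB2 7.48. In suspended cells SPARC (0.37, limma adjusted p = 1.02e-04) and ZEB1 (0.27, 0.00240) were higher and CDH2 (−0.38, 1.04e-04) lower. VIM, FN1 and the epithelial markers did not pass the test. Below 5.28, the 25th percentile of gene means, lay 3 of 4 endothelial markers (PECAM1, VWF and TEK), 1 of 3 adipocyte markers (LEP) and 2 of 3 leukocyte markers (PTPRC and CD3E). CDH5, ADIPOQ, PLIN1 and CD14 lay above it. Of these 10 markers CD14 passed the test (0.22, adjusted p = 0.0467). Each of these values is a log2 signal. Probes differ in their response, so a level set beside that of other genes, percentiles included, describes the signal on the array and not the amount of transcript.

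The caveolar coat genes moved in opposite directions. CAVIN1, the cavin without which caveolae do not form, was 1.61-fold lower in suspended cells, and CAVIN3, a cavin that binds protein kinase C delta, was 1.58-fold higher. CAV1, the main structural caveolin, fell 1.12-fold and EHD2 rose 1.12-fold, both close to the limit of the test. PACSIN2 and CAVIN2 did not pass it. In RNA of whole cultures, fewer cells with a transcript and less of it per cell cannot be told apart. By limma with adjustment over all 18417 genes, 4 of the 6 measured members were called, 2 higher and 2 lower, against 20.6% of all genes. Calls were more frequent at higher signal. Of the 9208 genes with a mean above the median of 6.40, tested on their own, 3870 were called. All measured members but CAVIN2 lay above that level, so 20.6% is not the share among genes of like signal. The same limit holds for the lists below. Groups did not overlap for those 4, against 24.8% of all genes. The median difference of the 6 members was −0.08 on the log2 scale, beside 0.02 for all genes tested.

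**Figure D1:**
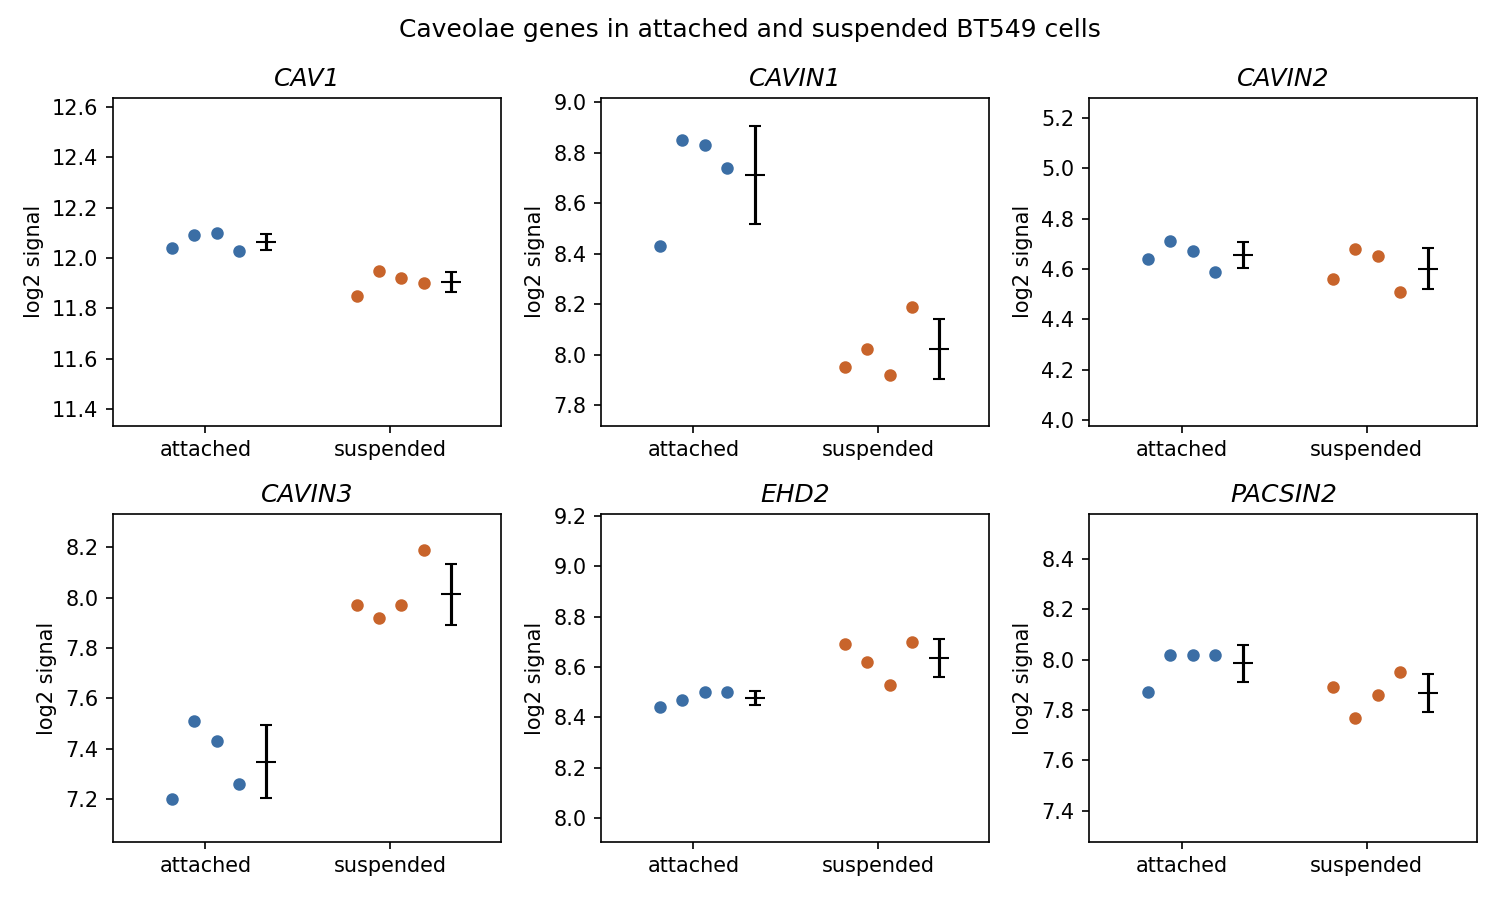
Log2 signal of the 6 measured caveolae genes in each of 4 attached (blue) and 4 suspended (orange) arrays, replicates 1 to 4 from left to right, with mean ± SD in black; every panel spans the same height. CAVIN1 lies lower and CAVIN3 higher in all 4 suspended arrays, while the CAVIN2 and PACSIN2 groups overlap.

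CAV1 encodes caveolin-1, which oligomerises into the disc that curves the membrane. Its log2 signal was 12.04, 12.09, 12.10 and 12.03 in attached replicates 1 to 4 and 11.85, 11.95, 11.92 and 11.90 in suspended replicates 1 to 4. The 4 suspended arrays all lay below the 4 attached arrays, with a gap of 0.08 between the nearest arrays. The mean fell from 12.06 ± 0.03 to 11.91 ± 0.04 (SD, n = 4 per group), a log2 difference of −0.16 (SE 0.045, 95% interval −0.26 to −0.06, limma adjusted p = 0.0255). CAV1 had a small spread between replicates, with a pooled SD of 0.037 at percentile 4.47 of all genes. Its mean signal stood at percentile 99.8 of all genes. The call was lost without attached replicate 2 (adjusted p = 0.0650), attached replicate 3 (0.0767) or suspended replicate 1 (0.0642), with differences between −0.17 and −0.14 over the 8 refits. After a further quantile normalization the difference was −0.10 (adjusted p = 0.192).

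CAVIN1 encodes cavin-1, also known as PTRF, which trimerises and recruits the other cavins to the coat. Its log2 signal was 8.43, 8.85, 8.83 and 8.74 in the attached arrays and 7.95, 8.02, 7.92 and 8.19 in the suspended arrays. Attached replicate 1 was the lowest attached array and suspended replicate 4 the highest suspended one, and the groups stayed 0.24 apart. The mean fell from 8.71 ± 0.19 to 8.02 ± 0.12 (SD, n = 4 per group), a log2 difference of −0.69 (SE 0.092, 95% interval −0.89 to −0.49, limma adjusted p = 2.85e-04). On the fold scale the interval runs from 1.40 to 1.86. This was the 81st lowest difference among 18417 genes, and CAVIN1 was among the 131 genes (0.711%) called lower by at least 1.5-fold. With 1 array left out in turn the difference lay between −0.79 and −0.65, the larger value without attached replicate 1, and the call held in each of the 8 refits.

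CAVIN3 went the other way. It encodes cavin-3, found in cavin complexes with cavin-1. Its log2 signal was 7.20, 7.51, 7.43 and 7.26 in the attached arrays and 7.97, 7.92, 7.97 and 8.19 in the suspended arrays. Each suspended array was above each attached array, by at least 0.41. The mean rose from 7.35 ± 0.14 to 8.01 ± 0.12 (SD, n = 4 per group), a log2 difference of 0.66 (SE 0.080, 95% interval 0.49 to 0.84, limma adjusted p = 1.32e-04). It ranked 139th among the rises of all genes. Over the 8 refits without 1 array the difference was 0.60 to 0.72 and stayed called.

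CAVIN2, the cavin also known as SDPR that is linked to membrane curvature, gave signals near the bottom of the array. The attached arrays read 4.64, 4.71, 4.67 and 4.59 and the suspended arrays 4.56, 4.68, 4.65 and 4.51. The groups overlapped, and with a mean signal at percentile 12.9 of all genes these values carry no statement of presence. The log2 difference was −0.05 (SE 0.054, 95% interval −0.17 to 0.06, limma adjusted p = 0.532).

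EHD2, an ATPase that assembles at the neck of the pit, had log2 signals of 8.44, 8.47, 8.50 and 8.50 in the attached and 8.69, 8.62, 8.53 and 8.70 in the suspended arrays. Suspended replicate 3 lay only 0.03 above the highest attached array. The mean rose from 8.48 ± 0.03 to 8.64 ± 0.08 (SD, n = 4 per group), a log2 difference of 0.16 (SE 0.050, 95% interval 0.05 to 0.27, limma adjusted p = 0.0438). The call held only in the refit that left out suspended replicate 3 and was lost in the other 7, with differences between 0.14 and 0.19 and adjusted p between 0.0195 and 0.105. Centring the arrays on their medians ended it as well (0.14, adjusted p = 0.108).

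PACSIN2, whose product bends membranes through its F-BAR domain, read 7.87, 8.02, 8.02 and 8.02 in the attached arrays and 7.89, 7.77, 7.86 and 7.95 in the suspended arrays. Attached replicate 1 fell inside the range of the suspended arrays, and the other attached arrays lay above it. The log2 difference was −0.12 (SE 0.056, 95% interval −0.24 to 0.01, limma adjusted p = 0.174).

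**Figure D2:**
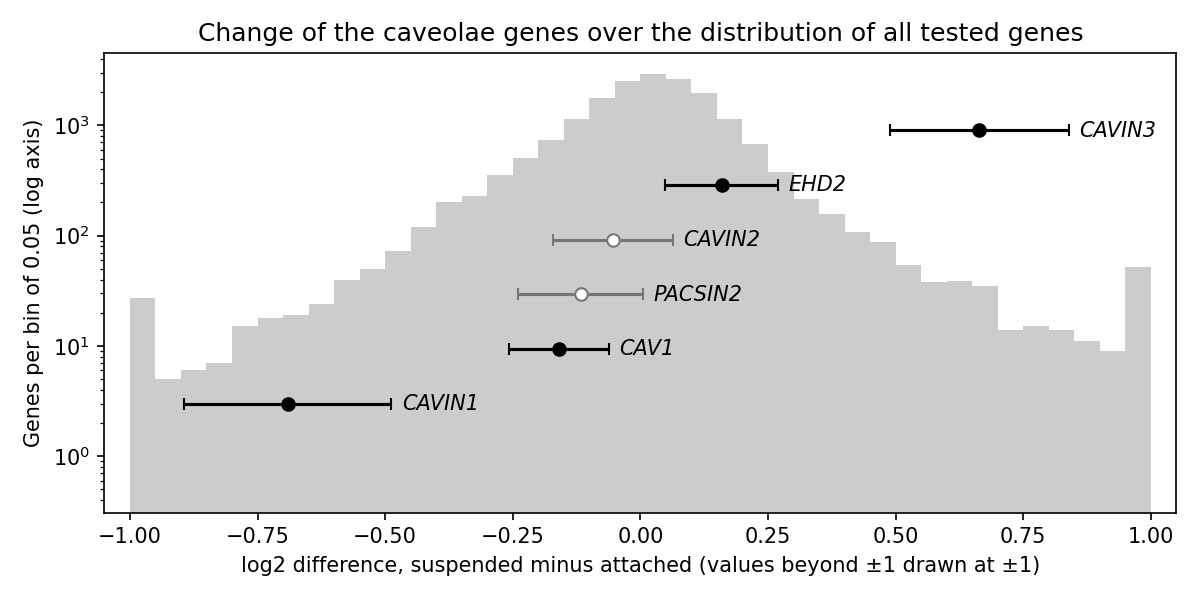
Log2 difference, suspended minus attached, of the 6 measured caveolae genes (points) with 95% limma intervals, drawn over a histogram of all 18417 tested genes on a log count axis; the height of a point has no meaning. Filled points passed the adjusted threshold and open points did not. CAVIN1 at −0.69 and CAVIN3 at 0.66 lie in the tails, and the other 4 genes lie between −0.16 and 0.16.

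Attached replicate 1 lay below its group mean for 6 of 6 members, while 51.7% of all genes lay below their group mean in that array. The log2 deviations were −0.28 (CAVIN1), −0.15 (CAVIN3), −0.11 (PACSIN2), −0.04 (EHD2), −0.02 (CAV1) and −0.01 (CAVIN2). Attached replicate 3 was as one-sided the other way, with 0 members and 48.5% of all genes below their group mean. Suspended replicate 4 lay above its group mean by 0.17 for CAVIN1 and 0.18 for CAVIN3, while CAVIN2 deviated by −0.09. In that array 44.0% of all genes lay below their group mean. In attached replicate 1 and suspended replicate 4 CAVIN1 and CAVIN3 deviated the same way, although their group means moved apart. The part of either array's sample in these results was not tested, and the results without each array are those given above. The pooled SD of CAVIN1, 0.161, stood at percentile 93.1 of all genes and that of CAVIN3, 0.133, at percentile 84.1.

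Whether members changed by unequal amounts was tested on the difference between 2 members within each array, which a shift of a whole array cannot alter. All 15 pairs of the 6 measured genes were compared by an exact two-sided permutation test of 4 against 4 arrays, in which 0.0286 is the smallest p that 70 splits can give. After Benjamini-Hochberg adjustment over the 15 pairs 11 passed, each at the smallest p of 0.0286 (adjusted p = 0.0390 by the exact permutation test). For 2 members that moved in opposite directions without overlap of their groups, the smallest p was fixed beforehand. These pairs were CAVIN1 or CAV1 with CAVIN3 or EHD2. Their passing restates the changes given above, and their p also lowers the adjusted p of the remaining pairs. Every pair holding CAVIN1 or CAVIN3 was among them, so the 11 share genes and are not separate results. The only others were CAV1 with EHD2 and EHD2 with PACSIN2. The adjusted p depends on how many pairs reach the smallest p, so these passed only beside the pairs of CAVIN1 and CAVIN3. The widest contrast was that of CAVIN1 and CAVIN3: the log2 change of CAVIN1 minus that of CAVIN3 was −1.35, with SD of 0.11 over attached and 0.07 over suspended arrays. It ranged from −1.40 to −1.31 when 1 array was left out. The signal of CAVIN1 also fell further than that of CAV1, by 0.53 (SD 0.18 and 0.12), a difference that was 0.49 to 0.62 with 1 array left out. Their mean signals lay at percentiles 84.9 and 99.8 of all genes. Probes differ in their response, so all these contrasts compare changes of signal and not of transcript amount. CAV1 and EHD2, whose own differences were small, differed by −0.32 (SD 0.04 and 0.10). That pair's p was fixed by their separate changes, so it adds nothing to their calls. EHD2 and PACSIN2 differed by 0.28 (SD 0.05 and 0.08).

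The other 4 pairs did not pass. CAV1 and PACSIN2 differed in their change by −0.04 (SD 0.07 and 0.11, exact permutation p = 0.486, adjusted p = 0.486), and CAVIN2 and PACSIN2 by 0.06 (SD 0.08 and 0.15, exact permutation p = 0.457, adjusted p = 0.486). CAV1 against CAVIN2 gave −0.11 and CAVIN2 against EHD2 −0.21, both at an exact permutation p of 0.0571 (adjusted p = 0.0659). The design allows few splits, so these values do not show that the genes changed alike.

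**Figure D3:**
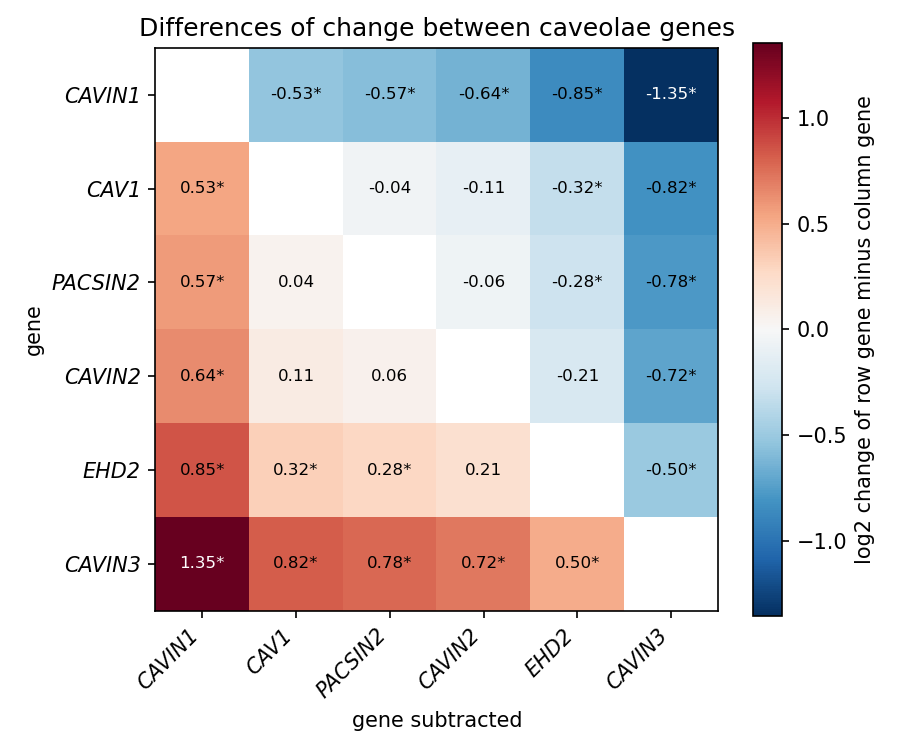
Difference in log2 change between each row gene and each column gene, over 4 attached and 4 suspended arrays; red marks a row gene that changed upward relative to the column gene and blue downward. Asterisks mark the 11 of 15 pairs with an adjusted exact permutation p under 0.05, which include every pair holding CAVIN1 or CAVIN3. For CAVIN1 or CAV1 with CAVIN3 or EHD2 the unadjusted p was fixed beforehand by their opposite, non-overlapping changes. The pair of CAVIN1 and CAVIN3 has the widest value, −1.35.

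The genes whose mean-centred profile over the 8 arrays was closest to a called member, by root mean square difference, were found as a description only. For CAVIN1 these were NFE2L3 (0.070), MRTO4 (0.100) and MMP9 (0.101), with log2 differences of −0.70, −0.66 and −0.58. For CAVIN3 they were the Wnt receptors FZD1 (0.068) and FZD8 (0.069) and the signalling regulator PHLDA1 (0.075), with differences of 0.65, 0.57 and 0.63. CAV1 was closest to DEPDC7 (0.017), the sorting nexin SNX5 (0.020) and CDCP1 (0.021), and EHD2 to ZFP14 (0.021), IER5L (0.022) and MIR125B1 (0.023).

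Paralogues and membrane-shaping partners of the members were compared next. Of 12 measured, 2 rose (against 10.4% of all genes called higher) and 1 fell (against 10.2% called lower), with a median log2 difference of 0.03. ROR1, a receptor kinase-like protein known to hold CAV1 and CAVIN1 together, read 7.30, 7.23, 7.17 and 7.30 in attached and 7.63, 7.76, 7.74 and 7.75 in suspended arrays. Its groups did not overlap, and it rose by 0.47 (SE 0.051, 1.38-fold, limma adjusted p = 6.39e-05). EHD4, a close relative of EHD2, read 7.33, 7.45, 7.50 and 7.38 attached and 6.97, 6.94, 7.02 and 6.88 suspended. It fell by 0.46 on the log2 scale (SE 0.054, limma adjusted p = 1.05e-04), while EHD1 and EHD3 differed by −0.10 and 0.03 and did not pass. The dynamin DNM1 rose by 0.23 (adjusted p = 0.0418), a call that 6 of the 8 refits lost (0.17 to 0.28), all but those leaving out replicate 2 of either group. DNM2, the dynamin found in most cell types, differed by −0.03. The muscle caveolin CAV3 (0.21) and the muscle cavin CAVIN4 (0.03) did not pass, nor did PACSIN1 (0.17) and PACSIN3 (0.08).

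Among 15 measured cytoskeletal anchors, kinases and turnover factors of caveolae 3 rose and 3 fell, with a median of 0.03, against 10.4% of all genes called higher and 10.2% lower. FMNL2, a formin that builds actin filaments, rose by 0.61 (1.53-fold, SE 0.046, limma adjusted p = 3.71e-06), from signals of 8.33, 8.42, 8.41 and 8.32 to signals of 8.95, 9.01, 8.97 and 9.0. The related tyrosine kinases ABL2 (−0.52, SE 0.043, adjusted p = 7.86e-06) and ABL1 (−0.38, SE 0.047, adjusted p = 1.56e-04) both fell, and no suspended array reached an attached one for either. The membrane-linked motor MYO1C fell by 0.22 on the log2 scale (adjusted p = 0.00751). The Src family kinase FYN (0.16, adjusted p = 0.0310) and UBXN6 (0.14, adjusted p = 0.0416), a VCP cofactor in the sorting of caveolin-1 to lysosomes, rose by small steps. FYN was still called in the refits lacking suspended replicate 2 or 3 and in no other (0.14 to 0.19), and UBXN6 in none of the 8 (0.12 to 0.16). SRC, which phosphorylates caveolin-1, differed by −0.03 and RHOA by 0.01, neither past the test. PRKCD, the kinase that cavin-3 binds, differed by 0.24 (adjusted p = 0.0547).

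Receptors, channels and enzymes reported at caveolae showed more rises than falls. Of 20 measured, 9 rose and 1 fell, against 10.4% of all genes called higher and 10.2% lower, with a median log2 difference of 0.15 beside 0.02 for all genes. In the 9208 genes above the median level, tested on their own, 1815 were called higher and 2055 lower. There 8 of the list rose and 1 fell. Both chains of the TGF-beta receptor rose, TGFBR1 by 0.39 (SE 0.047, limma adjusted p = 1.28e-04) and TGFBR2 by 0.37 (SE 0.047, adjusted p = 1.87e-04). The Wnt co-receptor LRP6 rose by 0.39 (SE 0.048, adjusted p = 1.58e-04). EGFR was the called fall, from 8.47, 8.64, 8.65 and 8.59 in attached to 8.0, 8.19, 8.13 and 8.21 in suspended arrays (log2 difference −0.45, SE 0.062, adjusted p = 3.39e-04). NOS3, the endothelial nitric oxide synthase that caveolin-1 binds, differed by 0.06 and the insulin receptor INSR by 0.07, neither past the test. No test of the list was made, and its share of rises says nothing of where the proteins lie.

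**Figure D4:**
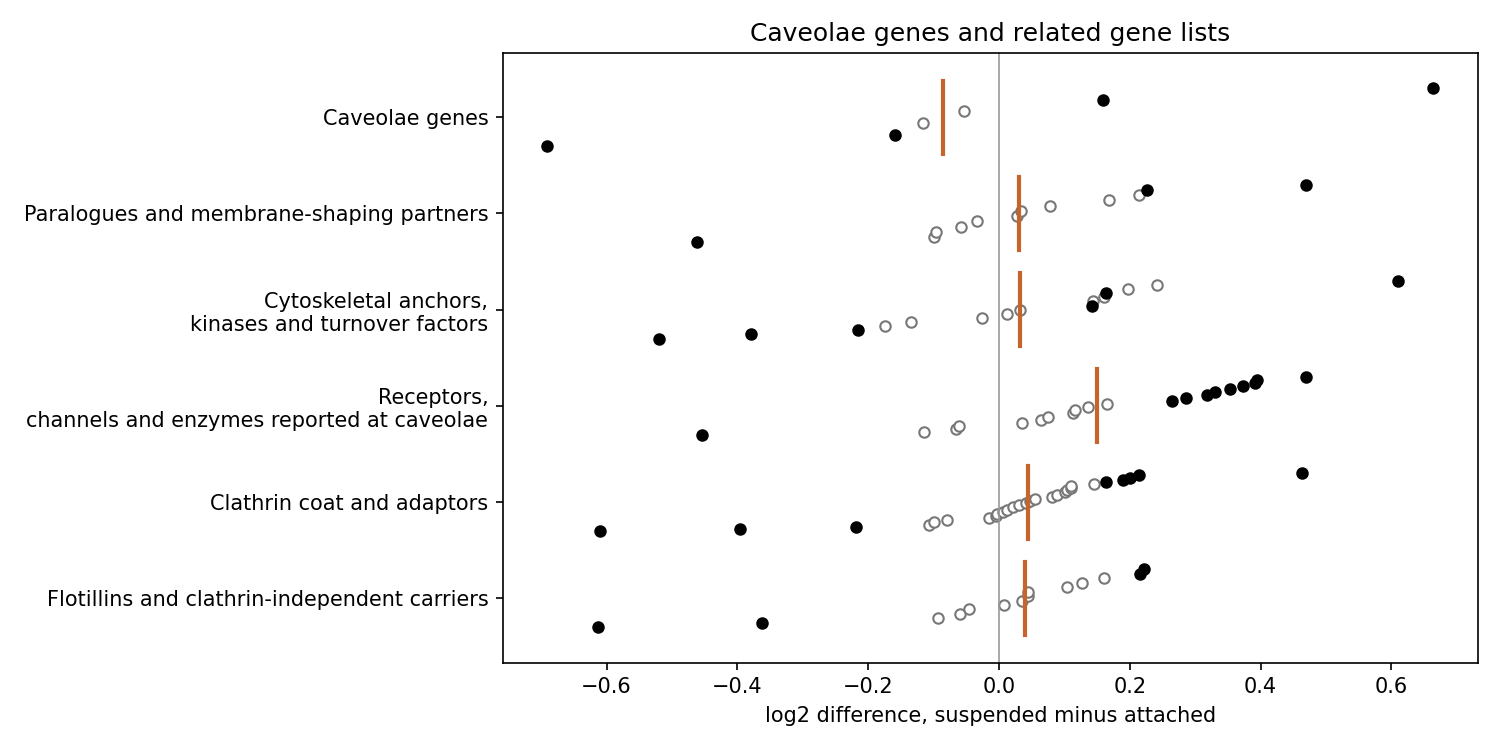
Log2 difference, suspended minus attached, of each measured gene in the caveolae genes and 5 related lists; filled points passed the adjusted threshold, open points did not, and the orange bar is the list's median. The caveolae genes spread from −0.69 to 0.66, and the receptor list has the highest median, 0.15.

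Other routes of membrane uptake were followed for comparison. Of 28 clathrin coat and adaptor genes 5 rose and 3 fell (median 0.04). That is 28.6% called, against 20.6% of all genes. Most of these genes lay above the median level, where 3870 of 9208 genes were called, so the share is not raised beside genes of like signal. The adaptor DAB2 fell by 0.61 on the log2 scale (SE 0.052, limma adjusted p = 9.42e-06), with signals of 9.20 to 9.21 attached and 8.47 to 8.67 suspended. The clathrin light chain CLTB (−0.40, adjusted p = 0.00213) and NECAP1 (−0.22, adjusted p = 0.0461) were the other falls, and EPN2 (0.46, adjusted p = 2.18e-04), EPS15 (0.21), AP2A2 (0.20), PICALM (0.19) and HIP1R (0.16) the rises. Of the 8 refits lacking 1 array, 6 lost the call of NECAP1 (−0.26 to −0.17), all but those lacking attached replicate 3 and suspended replicate 2. HIP1R also lost 6 (0.13 to 0.19), all but those lacking attached replicate 2 and suspended replicate 1. PICALM lost it when attached replicate 2 or 3 was dropped (0.16 to 0.21). The heavy chain CLTC, which forms the clathrin cage, differed by 0.10 and did not pass.

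Of 14 flotillins and genes of clathrin-independent carriers 2 rose and 2 fell (median 0.04), again 28.6% called against 20.6% of all genes. Here too most genes lay above the median level, where calls were more frequent, so the share is not read as raised. The falls were ARHGAP26 (−0.61, SE 0.052, limma adjusted p = 8.90e-06), also known as GRAF1, a regulator of tubular uptake carriers, and its relative ARHGAP10 (−0.36, adjusted p = 7.89e-04). ARHGAP26 read 7.37 to 7.52 in attached and 6.75 to 6.89 in suspended arrays. CD44, a surface receptor carried by this route, rose by 0.22 (adjusted p = 0.00378) and the raft scaffold FLOT2 by 0.22 (adjusted p = 0.0110), while its partner FLOT1 differed by −0.05 and did not pass.

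**Figure D5:**
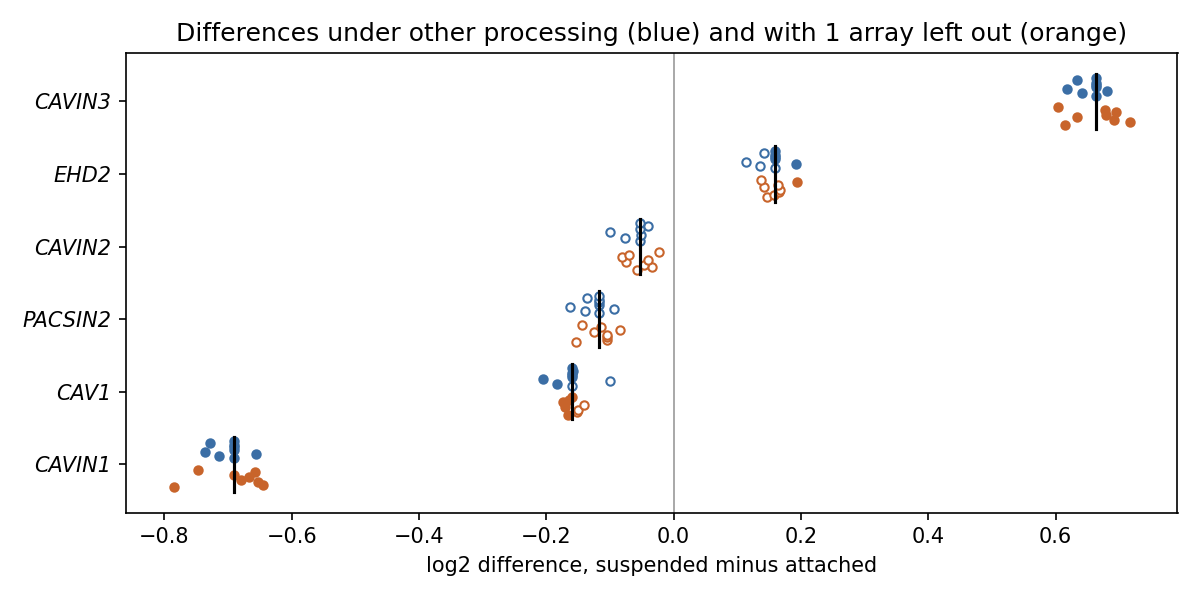
Log2 difference of the 6 measured caveolae genes as reported (black bar), under 9 other ways of processing (blue; 7 for CAVIN2, whose signal lies below both level filters) and with each of the 8 arrays left out in turn (orange); filled points passed the adjusted threshold and open points did not. CAVIN1 and CAVIN3 stayed filled throughout, whereas CAV1 and EHD2 had open points.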

How the data were processed

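The authors deposited 1 table of 33297 probe sets by 8 arrays, whose values, made with Partek per the submitters' processing notes, are taken as log2 signals. The scale is inferred from their size. Of its version, background correction and normalization, nothing is given in the sources used here. The platform annotation gave 19460 probe sets 1 symbol, 1754 several and 12083 none; only those with 1 were used. Checked by gene ID against RefSeq (GRCh38.p14), 0 symbols needed an update and 31 had no match. The probe set with the highest mean stood for each of 769 genes that had several, leaving 18417.

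The test was limma (version 3.58.1, R 4.3.3) on 4 against 4 arrays (lmFit, eBayes, two-sided, Benjamini-Hochberg over all genes, threshold 0.05), without a filter on low signals or further normalization. Differences are suspended minus attached, SE is limma's, SD is over arrays. Probe sets differ in response, and without a background measure a fold is a ratio of signals. Members and lists were chosen with earlier results of these data known. Named besides the members are each list's 3 smallest adjusted p, called members where 5 or fewer went one way, fixed markers, and the 3 closest profiles per called member; unchanged list genes named beside them were chosen after their values were seen. Alternatives were the replicate number as a block, 2 centrings (that on tested genes chosen after seeing the data), quantile normalization, 2 level filters, probe set means, array weights, a trended robust prior, a 1.5-fold minimum and leaving out each array. On simulated data with 18417 genes and 4 arrays per group limma recovered 62% of 100 genes changed 1.25-fold and 98% of 100 changed 2-fold, with 14 unchanged genes called. No other genes were changed there, whereas 20.6% of genes were called in the data. The adjustment depends on that share, so these rates are not the recovery in the data. Figures were drawn with matplotlib 3.10.9 in Python 3.11.15.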

Additional observations from a re-analysis of the deposited data

Results flagged for a closer look

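PACSIN2 in attached replicate 1, at a log2 signal of 7.87, stood apart from the 3 other attached arrays, which all read 8.02. Its gap to the nearest of them took 0.974 of the group's range, above Dixon's 95% critical value for 4 samples. Of the 12 sets of 4 arrays tested in this way (6 genes in 2 groups) this was the 1 that passed, and chance flags about 1 in 20. Without that array the PACSIN2 difference was −0.15 (adjusted p = 0.0871), still not called.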

How the results depend on the processing

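CAVIN1 (−0.74 to −0.66) and CAVIN3 (0.62 to 0.68) kept their direction and call under the 9 alternative fits, and no member changed sign in any fit. CAV1 was not called after quantile normalization (−0.10) nor with replicate numbers blocked (−0.16, adjusted p = 0.0627), and ranged from −0.17 to −0.14 with 1 array left out. EHD2 was not called with the block (0.16, adjusted p = 0.0958), after centring on the array median (0.14) or on the median of tested genes (0.11), or with array weights (0.14), and ranged from 0.14 to 0.19 with 1 array left out. Same-numbered arrays correlated at −0.198 to 0.042 in their deviations from group means, so the numbers were not taken as pairs; with the block 3022 genes were called in place of 3787. Probe set means could not move a member or a pair, since each member has 1 probe set. Centring on tested genes moved the share of calls that were higher from 50.4% to 35.2% and the median of all genes from 0.02 to −0.02; centring over all probe sets gave 42.5%. A 1.5-fold minimum left 331 calls, 131 of them lower, and in the lists 0 falls and 0 rises (partners), 0 and 1 (cytoskeletal), 0 and 0 (receptors), 1 and 0 (clathrin) and 1 and 0 (flotillins). Rises among partners were 1 with the block, either centring or array weights, and 1 to 2 with 1 array left out. Cytoskeletal falls were 5 with centring on tested genes, the median level filter or the trended prior; rises were 1 with either centring and 1 to 2 with 1 array left out. Clathrin rises were 3 with the block, 2 with centring on tested genes and 3 to 5 with 1 array left out; flotillin rises were 4 above the median level. The cause of these moves was not tested. The level filters left out CAVIN2. CAV2 gave no value. Signal over background is unknown, which limits CAVIN2 most.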
